A study of Mus musculus with 6 samples.

Results

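The microRNA (miRNA) hairpin mir-126a gives 2 mature miRNAs, miR-126a-3p and miR-126a-5p, one from each side of its stem. They were followed in white adipose tissue (WAT) of ApoE-deficient mice through their miRBase accessions, MIMAT0000138 for the 3p arm and MIMAT0000137 for the 5p arm. Both accessions were in the table, as 2 of the 707 mature miRNAs counted. They were found by accession, and they had been picked with earlier results of these data known.

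The libraries came from WAT, 3 from the chronic intermittent hypoxia (CIH) group and 3 from the control group. All were male ApoE-deficient mice, so the controls also lacked apolipoprotein E, a protein that helps remove lipoproteins from the circulation. The CIH mice were kept for weeks in cages in which the oxygen was repeatedly lowered and restored, a model of the hypoxia of obstructive sleep apnea (OSA). The fat depot, the age of the mice and the cage conditions of the controls are not given in the sources used here, and no wild-type mice were sequenced. Nothing states whether each library was 1 mouse or a pool, so the p-values measure the spread between these libraries.

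miRNAs bind messenger RNAs through a short seed near their 5′ end and lower the output of those messages. mir-126a lies inside Egfl7, a gene of blood vessel endothelial cells, and its 2 arms are known as miRNAs of the endothelium. The 3p arm is known to repress Spred1 and Pik3r2, which dampen the signal of vascular endothelial growth factor (VEGF). The 5p arm is known to repress Dlk1, an inhibitor of Notch signaling that also marks fat cell precursors. WAT is rich in capillaries, and its bulk RNA mixes adipocytes with endothelial and other cells. In such RNA, fewer cells of a type and less of an RNA per cell cannot be told apart.

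The sequences are shown because the position of each arm in the hairpin and the overlap with a hairpin on the other strand decide which reads can be counted for miR-126a. In the mouse genome build GRCm38, Mir126a spans chr2:26591357-26591429 on the plus strand. In GENCODE release M21, the host gene Egfl7 spans chr2:26580014-26593120 on the same strand. Of its 19 transcripts, 8 carried the hairpin in an intron, which in 6 of them ran from 26591064 to 26591663, and 1 transcript that retains an intron carried it in an exon. The other transcripts did not reach across it. The hairpin is given first, 5′ to 3′ from RefSeq on GRCm38.p6, with miR-126a-3p in capitals. The mature miRNAs follow, with the seed (bases 2 to 8) in capitals.
mir-126a hairpin: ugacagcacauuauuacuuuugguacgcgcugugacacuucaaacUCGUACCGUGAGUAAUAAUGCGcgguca
miR-126a-3p: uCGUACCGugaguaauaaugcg
miR-126b-5p: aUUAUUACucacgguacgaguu
miR-126b-3p: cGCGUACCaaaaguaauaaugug

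The mature miR-126a-3p took bases 46 to 67 of the 73 bases of the hairpin, at chr2:26591402-26591423. Its seed CGUACCG was found in 1 of the 1679 mature mouse miRNA names of the RefSeq table, which was miR-126a-3p itself. A mature entry for miR-126a-5p was not used here, so that arm is named without its sequence.

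The 2 lines for miR-126b belong to Mir126b, a hairpin of 58 bases annotated on the minus strand at chr2:26591363-26591420. The whole of it was the reverse complement of bases within mir-126a. Of the 22 bases of miR-126a-3p, 19 in a row were complementary to miR-126b-5p, and miR-126b-3p was complementary to bases 7 to 29 of the mir-126a hairpin. Whether the authors' counting used the strand is not given in the sources used here. Without strand, reads from the 2 hairpins cannot be told apart. No other miRNA in the table had the same counts as either arm of miR-126a in all 6 libraries. This does not show whether reads were shared with another entry in part.

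The libraries held between 636963 and 4783768 counts on mature miRNAs. Control 2 was the deepest of them. The most abundant miRNA took between 20.7% and 34.9% of a library. The factors of TMM normalization, which corrects library totals for such differences in composition, ranged from 0.575 to 1.45. Control 1 and control 2 had a count for 487 and 552 miRNAs, and the other 4 libraries for 631 to 649. In all 15 pairs of libraries the counts differed beyond counting error. With this many counts, separate libraries of the same RNA could differ so too, and the check does not show that the libraries were independent. Each library entered as its own replicate. The tissue was not checked against miRNAs typical of fat or of other cell types, because no file used here links the other accessions to names.

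The first question was how much miR-126a the tissue held in each group. miR-126a-3p was an abundant miRNA of WAT, with 5150, 172638 and 5685 counts in control 1, 2 and 3 and 8317, 5761 and 5963 counts in CIH 1, 2 and 3. It ranked 28th, 5th and 19th among the miRNAs of the control libraries and 22nd, 16th and 15th among those of the CIH libraries. As a share of the library, it made up 0.377% (95% exact binomial interval 0.367% to 0.387%) of control 1, 3.61% (3.59% to 3.63%) of control 2 and 0.717% (0.699% to 0.736%) of control 3. In CIH 1, 2 and 3 the share was 0.527% (0.516% to 0.538%), 0.781% (0.761% to 0.801%) and 0.936% (0.913% to 0.960%). These intervals cover counting error only. Control 2 held by far the most, and the CIH libraries lay inside the range of the control libraries.

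miR-126a-5p was the scarcer arm in all 6 libraries. It had 629, 13459 and 857 counts in control 1, 2 and 3 and 1340, 741 and 716 counts in CIH 1, 2 and 3. It ranked 77th, 35th and 78th in the control libraries and 73rd, 82nd and 84th in the CIH libraries. The arm was highest in control 2, as the 3p arm was, and the groups overlapped.

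CPM by library totals scales counts to 1 common total, and TMM-normalized CPM also corrects for composition. These scales placed the arms differently in control 1, control 3 and the CIH libraries. On the TMM scale, miR-126a-3p had 6552, 41652 and 5124 normalized CPM in control 1, 2 and 3 and 6679, 6225 and 6468 in CIH 1, 2 and 3. The median was 6552 over the control libraries and 6468 over the CIH libraries. miR-126a-5p had 800.3, 3247 and 772.5 normalized CPM in control 1, 2 and 3 and 1076, 800.6 and 776.6 in CIH 1, 2 and 3. Its medians were 800.3 for control and 800.6 for CIH. For both arms, the medians of the groups nearly coincided on this scale, while the means were set apart by control 2. By library totals, the medians were 7170 CPM (control) and 7811 CPM (CIH) for the 3p arm. For the 5p arm they were 1081 CPM (control) and 1005 CPM (CIH).

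**Figure D1:**
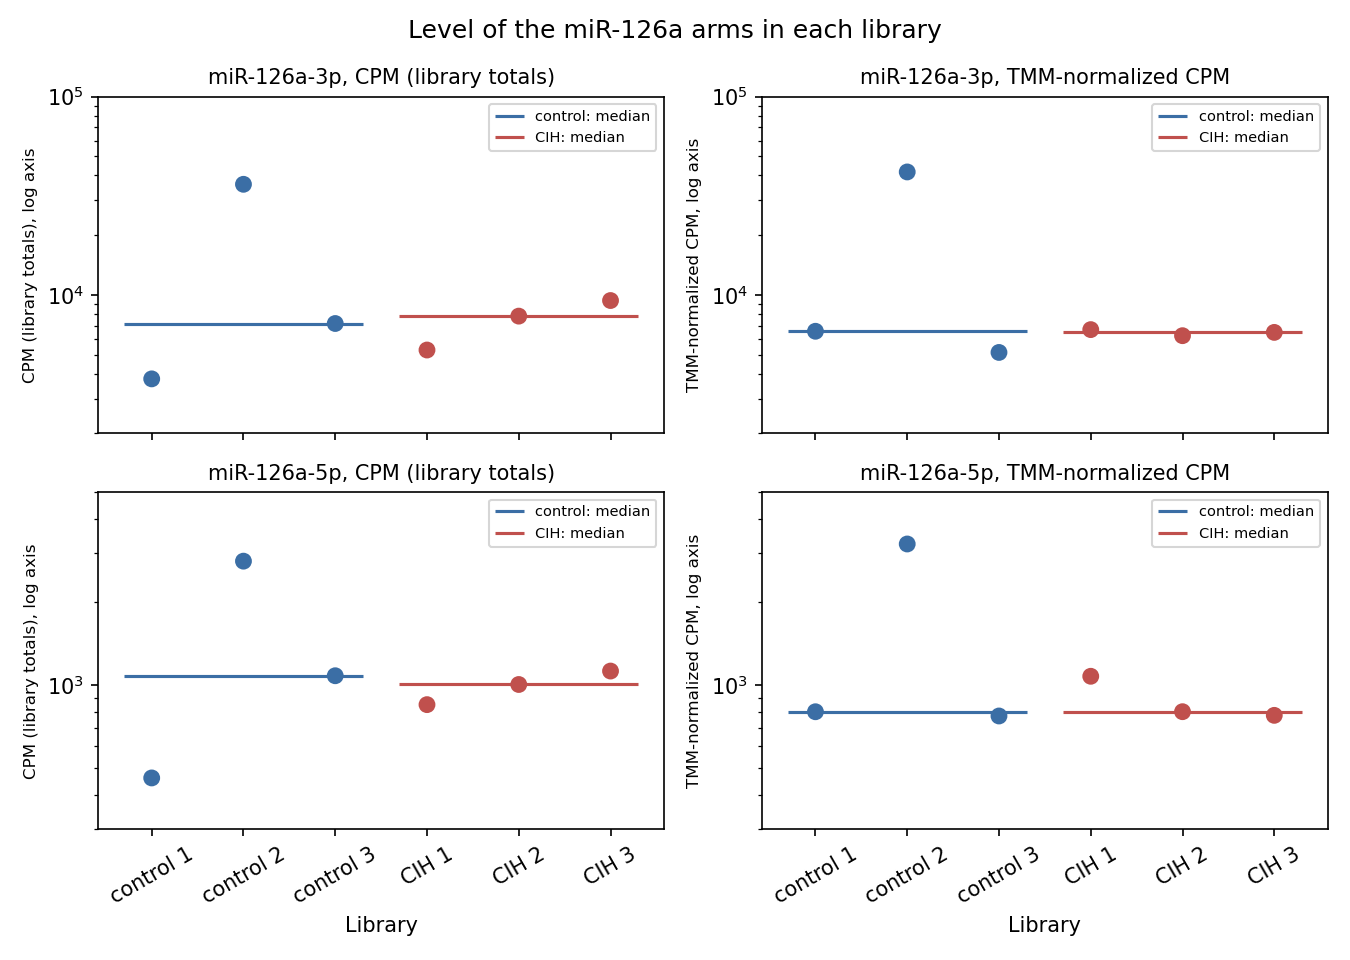
Level of miR-126a-3p (top) and miR-126a-5p (bottom) in each library, as CPM by library totals (left) and as TMM-normalized CPM (right), on log axes, with points for single libraries (blue, control; red, CIH) and lines for group medians. On the TMM scale, 5 libraries lie between 5124 and 6679 for the 3p arm and between 772.5 and 1076 for the 5p arm, and control 2 lies above them at 41652 and 3247.

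The mean of miR-126a-3p was 17776 ± 20689 TMM-normalized CPM (SD, n = 3) under control conditions and 6457 ± 228 (SD, n = 3) under CIH. The log2 fold change of CIH over control was -1.46 (standard error 0.98, 95% interval -3.80 to 0.87, adjusted p = 0.882, edgeR quasi-likelihood fit of 633 miRNAs). This difference did not exceed the spread between libraries, and the interval ran from a 0.0720-fold to a 1.83-fold level.

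The mean of miR-126a-5p was 1607 ± 1421 TMM-normalized CPM (SD, n = 3) under control conditions and 884 ± 166 (SD, n = 3) under CIH. The log2 fold change of this arm was -0.86 (standard error 0.78, 95% interval -2.73 to 1.01, adjusted p = 0.882 from the same edgeR test). This difference, too, was within the spread between libraries.

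Neither arm was called. Over all 633 miRNAs tested, 0% reached an adjusted p-value under 0.05 in edgeR's fit and 2.53% an unadjusted one under 0.05, where the unadjusted p of the 3p and 5p arms was 0.181 and 0.308. The background itself depended on 1 library. Without control 3, an adjusted p-value under 0.05 was reached by 118 of 614 miRNAs (19.2%) in edgeR's fit, and neither arm was among them. Control 3 had a count for 636 miRNAs, within the 631 to 649 of the CIH libraries, against 487 in control 1 and 552 in control 2. Abundant miRNAs differed as well, as 2 examples picked after seeing the values show. 1 miRNA had 98.0 and 250 TMM-normalized CPM in control 1 and 2. It had 82894 in control 3 and 83828, 80215 and 57380 in CIH 1, 2 and 3. Another had 91001 in control 1, 26.8 in control 2 and 12.6 in control 3. In CIH 1, 2 and 3 it had 2265, 29.2 and 15.2. How many miRNAs went each way was not counted. The control libraries were thus unlike each other, and the part of this in the 0% was not tested. For 8.06% of the miRNAs the libraries of the 2 groups did not overlap, and for both arms they did. Over all of them the log2 fold change had a median of 0.07. A change smaller in size than that of the 3p arm was found for 75.7% of the miRNAs, and for 48.0% in the case of the 5p arm.

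**Figure D2:**
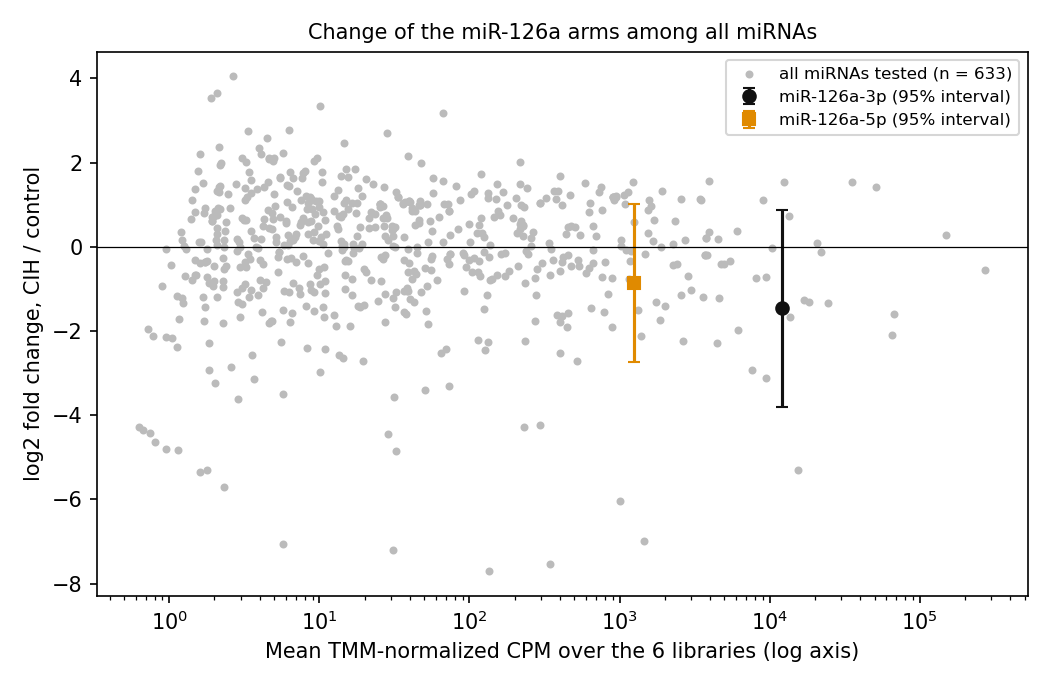
Log2 fold change of CIH over control (vertical axis) against the mean TMM-normalized CPM over the 6 libraries (horizontal log axis) for the 633 miRNAs tested, with the miR-126a arms and their 95% intervals drawn in black (3p) and orange (5p). The intervals, -3.80 to 0.87 and -2.73 to 1.01, both include 0.

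The sign of both fold changes rested on control 2. Without control 2, the log2 fold change of miR-126a-3p was 0.22 (standard error 0.57, 95% interval -1.22 to 1.65, adjusted p = 0.968 from edgeR's test over 575 miRNAs). That of miR-126a-5p was 0.23 (standard error 0.50, 95% interval -1.01 to 1.48, adjusted p = 0.968 from the same test). These intervals reach from 0.430-fold to 3.14-fold for the 3p arm and from 0.495-fold to 2.80-fold for the 5p arm. With any other single library left out, both arms kept a negative fold change. Without control 3, that of miR-126a-3p was -1.92 with an unadjusted p of 0.0588 and an adjusted p of 0.154 from edgeR's test. In that fit 36.6% of all miRNAs had an unadjusted p under 0.05.

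**Figure D3:**
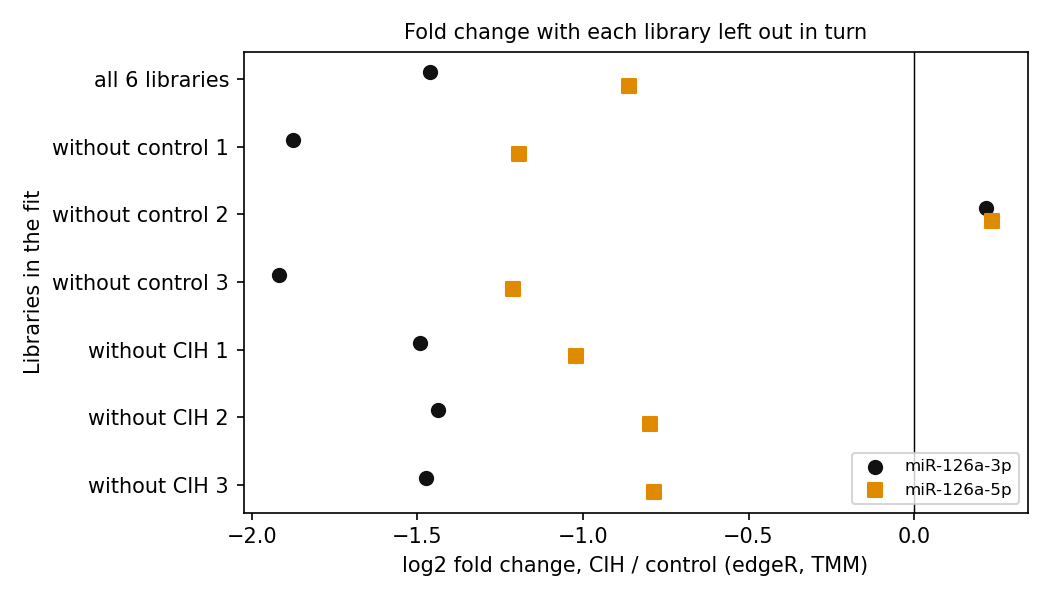
Log2 fold change of CIH over control (horizontal axis) for miR-126a-3p (black circles) and miR-126a-5p (orange squares), with all 6 libraries and with each library left out in turn (vertical axis). Without control 2 the values are 0.22 and 0.23, and in every other fit shown both are below 0.

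The next question was how control 2 and the remaining 5 libraries differed, and the 5 were set apart after their values were seen. In control 2, miR-126a-3p was 6.24-fold above the next highest library in TMM-normalized CPM, and 3.85-fold above it in CPM by library totals. miR-126a-5p was 3.02-fold above the next highest library on the TMM scale and 2.50-fold on the other. Control 2 also held the most counts of all libraries, 4783768. As given above, it differed from control 3 and the CIH libraries in other abundant miRNAs too. The part of depth or of composition in these levels was not tested.

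The remaining 5 libraries lay closer together on the TMM scale than by library totals. The highest of them exceeded the lowest 1.30-fold for miR-126a-3p and 1.39-fold for miR-126a-5p. By library totals, the same ranges were 2.48-fold and 2.44-fold. Since control 2 was set apart for its level of these arms, a narrow range over the others is no measure of how steady the arms are.

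Within each group, the spread of the arms was set beside that of the 238 miRNAs that reached 10 counts in each library, as a description. In the CIH group, the SD of the log2 TMM-normalized level was 0.051 for miR-126a-3p and 0.26 for miR-126a-5p, where the median over the 238 was 0.37. A smaller SD was found for 2.94% of them in the case of the 3p arm and for 33.6% in the case of the 5p arm. In the control group, with control 2 included, the SD was 1.65 for the 3p arm and 1.18 for the 5p arm, where the median was 0.96. There 81.1% of the 238 varied less than the 3p arm and 58.8% less than the 5p arm. Within the CIH group, the coefficient of variation of miR-126a-3p was 3.52% in TMM-normalized CPM and 27.6% in CPM by library totals. For miR-126a-5p it was 18.8% and 13.9%. The spread of the 3p arm among the CIH libraries was thus smaller on the TMM scale than in CPM by library totals. By library totals it was not set beside that of the other miRNAs.

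Other miRNAs moved in control 2 as well. Each library was set against the median of the remaining 5 for the 238 miRNAs, on the log2 TMM-normalized scale with a prior count of 2. miR-126a-3p was 2.69 above that median in control 2, and 15 of the 238 miRNAs, itself included, were as high or higher (6.30%). miR-126a-5p was 2.02 above it, and 34 of the 238 were as high or higher (14.3%). In the other libraries, the 3p arm lay between -0.35 and 0.05 and the 5p arm between -0.05 and 0.43.

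**Figure D4:**
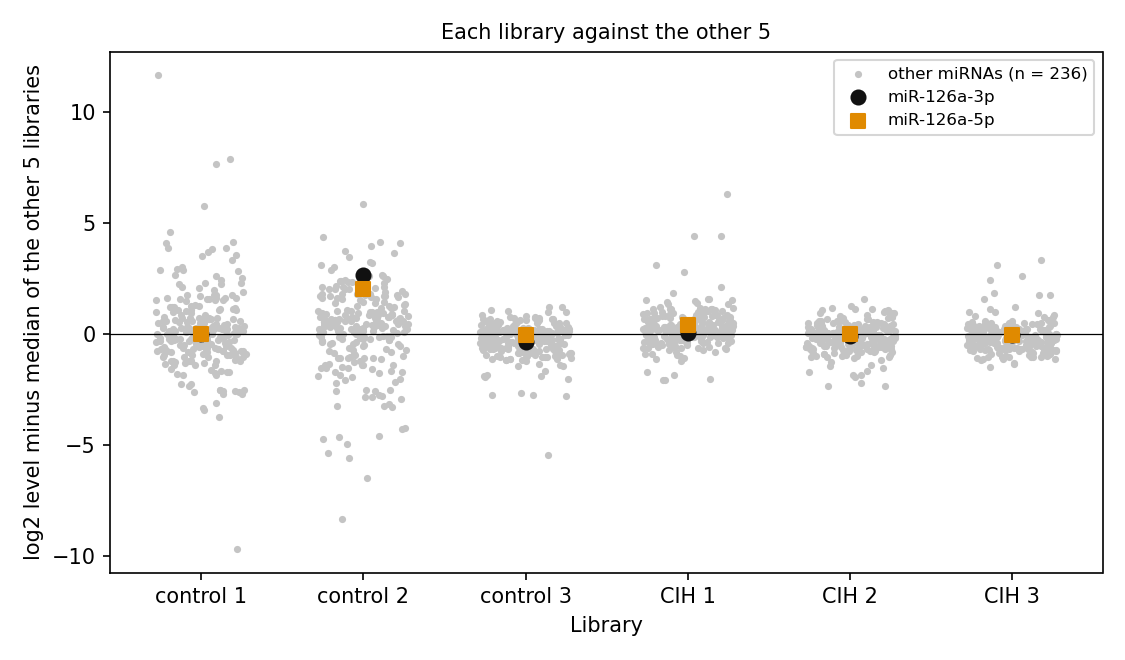
Log2 TMM-normalized level in each library minus the median of the remaining 5 libraries (vertical axis) for the 238 miRNAs that reached 10 counts in each library, grouped by library (horizontal axis), with miR-126a-3p as black circles, miR-126a-5p as orange squares and the other 236 miRNAs in grey. The arms lie at 2.69 and 2.02 in control 2 and near 0 elsewhere, and the grey points spread widely in control 1 and control 2.

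The 2 arms come from the same precursor, so that their ratio within a library needs no normalization. For each read of miR-126a-5p there were 8.19, 12.8 and 6.63 reads of miR-126a-3p in control 1, 2 and 3, and 6.21, 7.77 and 8.33 in CIH 1, 2 and 3. The 3p arm was higher in 6 of 6 libraries, by 3.02 ± 0.37 on the log2 scale (SD, n = 6; exact sign-flip permutation test, two-sided, p = 0.0312, the smallest that 6 libraries can give). Ligation and amplification can favor one sequence over another, so the ratio of reads need not be the ratio of molecules in the tissue.

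The 5p arm made up 10.9% (95% exact binomial interval 10.1% to 11.7%) of the reads of both arms in control 1, 7.23% (7.11% to 7.35%) in control 2 and 13.1% (12.3% to 13.9%) in control 3. In CIH 1, 2 and 3 it made up 13.9% (13.2% to 14.6%), 11.4% (10.6% to 12.2%) and 10.7% (9.99% to 11.5%). Control 2 had the lowest share, and its interval met no other. The remaining 5 libraries also differed by more than counting error, since the intervals of CIH 1 and CIH 3 did not meet.

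**Figure D5:**
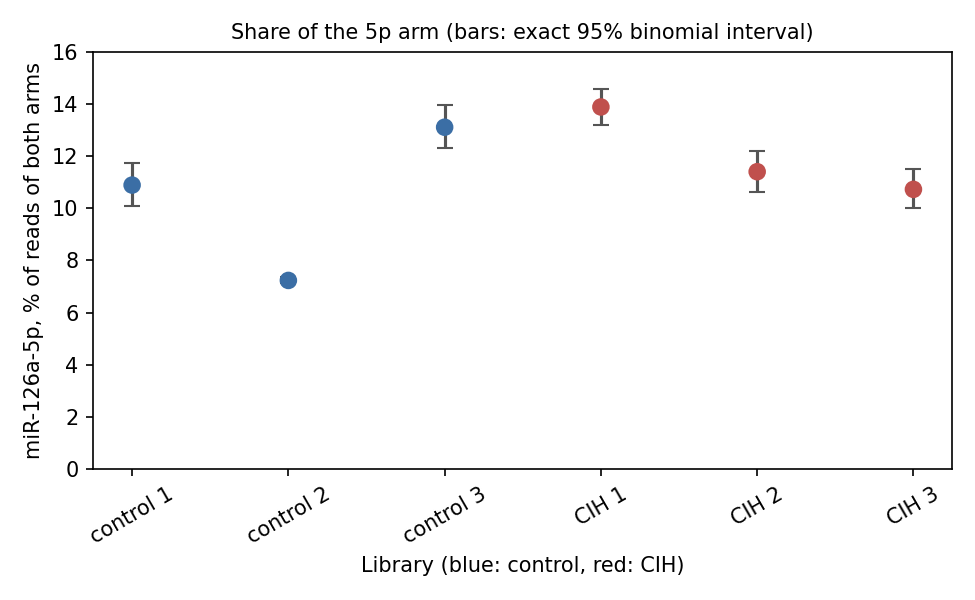
Reads of miR-126a-5p as a percentage of the reads of both arms (vertical axis) in each library (horizontal axis), with points for single libraries (blue, control; red, CIH) and bars for the exact 95% binomial interval, which is narrower than the point in control 2. Control 2 lies at 7.23% and the other 5 libraries between 10.7% and 13.9%, with control and CIH libraries interleaved.

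Between the groups, the arm ratio did not differ beyond its spread. The mean share of the 5p arm was 10.4% ± 2.96 (SD, n = 3) for control and 12.0% ± 1.66 (SD, n = 3) for CIH. The log2 ratio of 5p over 3p was -3.15 ± 0.49 (SD, n = 3) for control and -2.88 ± 0.22 (SD, n = 3) for CIH. The CIH minus control difference was 0.26 (exact permutation test, two-sided, p = 0.5, where 3 against 3 libraries cannot go below 0.1). Taken 1 CIH and 1 control library at a time, the 9 differences ran from -0.33 to 1.05, and 6 were positive. Without control 2 the group difference was -0.0019 (same exact permutation test, p = 1), so it rested on that library.

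Across the 6 libraries, the log2 TMM-normalized levels of the 2 arms gave a Pearson's r of 0.980 (exact permutation test, p = 0.00833) and a Spearman's rho of 0.829 (exact permutation test, p = 0.0583). This was the only relation across libraries that was tested. It was tested with 2 coefficients, and neither p-value was adjusted for that. With control 2 and control 3, the libraries farthest from the median of the 3p arm, left out, r was 0.660 over 4 libraries. Without control 2 alone it was 0.464. The relation therefore rested on control 2, and both arms share the depth and the composition of each library.

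The patterns of these 238 miRNAs were ordered by their Pearson correlation with each arm over the 6 libraries, as a description. Among 237 others, miR-126a-5p was the third most like miR-126a-3p, and miR-126a-3p was the second most like miR-126a-5p. The most like the 3p arm was MIMAT0004859 (r = 0.987), and the most like the 5p arm was MIMAT0000128 (r = 0.990). Without control 2, the 5p arm fell to place 74 in the order of the 3p arm, and the 3p arm to place 62 in the order of the 5p arm.

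By mean CPM over the 6 libraries, miR-126a-3p stood at place 14 and miR-126a-5p at place 70 of the 707 miRNAs. The mean was 11579 ± 12166 CPM (SD, n = 6) for the 3p arm. Its neighbours in the order were at 12274 ± 12203 and 11189 ± 16053 CPM (SD, n = 6). The mean of the 5p arm was 1222 ± 816 CPM (SD, n = 6), and its neighbours were at 1254 ± 1074 and 1220 ± 600.0 CPM (SD, n = 6). The neighbours were picked as the nearest in this order, so their closeness to each arm says nothing about the arms. The means over 6 libraries were 1.73-fold and 1.35-fold those without control 2 for the 3p and the 5p arm. Without it, an alternative chosen after seeing the data, the 3p arm averaged 6677 ± 2189 CPM (SD, n = 5) at place 20, and the 5p arm 904 ± 269 CPM (SD, n = 5) at place 85. In each of these 5 libraries the 3p arm ranked between 15th and 28th and the 5p arm between 73rd and 84th.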

How the data were processed

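The table deposited by the authors holds unnormalized read counts, 1 row for each of 707 mature miRNA accessions and 1 column for each of 6 small RNA libraries (3 control and 3 CIH). Their trimming, alignment, miRNA database release, strand setting and treatment of reads with several matches are not given in the sources used here. The libraries were grouped by their labels. miRNAs with at least 10 summed counts were fitted with edgeR 4.0.16 (TMM, quasi-likelihood, group only) in R 4.3.3, with Benjamini-Hochberg adjustment over all of them. The fit was tested on simulated data. That test set pass conditions only at the lower spread simulated, so it does not show how the fit performs on these libraries. Standard errors and 95% intervals came from the fold change and the F statistic. Levels for correlations were log2 CPM with a prior count of 2. Arm ratios were compared with exact permutation tests, in Python 3.11.15 (scipy 1.17.1, numpy 2.4.6, pandas 2.3.3), and figures were drawn with matplotlib 3.10.9. Sequences came from RefSeq (GRCm38.p6) and gene models from GENCODE release M21 (GRCm38).

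The alternatives were 4 other scalings (library totals, RLE, upper quartile, and totals leaving out the 5 most abundant miRNAs), 3 low count filters (none, filterByExpr and 10 counts in each library), DESeq2 1.42.0, the exact test of edgeR, voom in limma 3.58.1, a replicate block, 2 other forms of the arm ratio, and each library left out in turn. By a fixed rule, the text names both arms, the miRNAs most like each arm and their neighbours in abundance, of which only the most alike are given by accession. The members, rules and lists were chosen with earlier results of these data known. Lists of angiogenesis-associated miRNAs and of cell type markers, and a fit of arm ratios over all hairpins, were not analysed here, because no file used here links the accessions to names.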

Additional observations from a re-analysis of the deposited data

How the results depend on the processing

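With all 6 libraries, both arms kept a negative log2 fold change and an adjusted p-value above 0.05 under all 11 alternatives of normalization, filter, test and block, with values from -2.28 (upper-quartile factors) to -0.72 (replicate block) for miR-126a-3p and from -1.63 to -0.50 for miR-126a-5p under the same settings. Library totals gave -1.07 and -0.55, and moved the median of all miRNAs to 0.33, and upper-quartile factors moved it to -0.52. Leaving out 1 library at a time, the fold change ran from -1.92 to 0.22 for the 3p arm and from -1.21 to 0.23 for the 5p arm, and the sign reversed without control 2. Over all 17 alternatives, the adjusted p ran from 0.154 to 0.975 for the 3p arm and from 0.242 to 0.975 for the 5p arm. The number of miRNAs called (adjusted p under 0.05) was 0 under all 11 alternatives with 6 libraries, and 0 to 118 leaving out 1 library at a time, where 118 came without control 3. At an unadjusted p-value under 0.05, edgeR's quasi-likelihood test gave 16, DESeq2 26, edgeR's exact test 29 and limma voom 75 miRNAs.

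The CIH minus control difference of the log2 arm ratio was 0.26, was 0.78 when counts were summed over each group, where control 2 gives most of the control reads, and ran from -0.0019 (without control 2) to 0.47 (without control 3) when 1 library was left out. Libraries with the same number deviated from their group means with correlations of 0.456, -0.031 and 0.074, and 2 of 6 libraries correlated best with their own number. This check cannot decide whether libraries with the same number were paired, since the labels name no pairs and number 1 had a higher correlation than the others. The replicate block called 0 miRNAs and left 3 at an unadjusted p under 0.05, and the difference in arm ratio was 0.26. The fit of arm ratios over all hairpins, with its alternatives, was not run. Both arms had at least 629 counts in every library.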
